A study of Mus musculus with 12 samples.

Results

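Interferon-induced and antigen presentation genes were examined as a set of 7 mouse genes: Ifih1, Gbp2, Gbp3, Oasl1, Tap1, B2m and Ifi205. The members were the genes whose symbol the array's platform annotation gives to a probe. Each of the 7 had 1 probe, among 21020 probes with a symbol that stand for 16637 genes. The array held 29922 probes, and 12 arrays of 1 colour (Cy5) were measured, with 3 arrays in each of 4 groups. All mice were BALB/c and the tissue was labelled muscle. The normal mock group held untreated normal mice and the normal mcIRBP group held normal mice given 2.5 nmol of mcIRBP, a bitter melon protein that binds the insulin receptor. The diabetic mock group held untreated diabetic mice and the diabetic mcIRBP group held diabetic mice given the same dose. Every normal mouse was labelled female and every diabetic mouse male, and disease state and sex cannot be told apart. The labels give no way in which diabetes arose, no age, and no statement that the 3 arrays of a group came from 3 mice, so that p-values measure the spread between these samples, which may be technical.

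Interferons are secreted proteins that cells release on infection, and they bind receptors that signal through JAK kinases and STAT factors. The factors then switch on a broad set of antiviral and immune genes, many of them through a promoter element called ISRE, the interferon-stimulated response element. Type II interferon (interferon gamma) also raises the machinery that shows peptides on the cell surface with class I molecules. In fat and muscle, macrophages and endothelial cells are known as cell types that respond to interferons. Among the members, Ifih1 encodes MDA5, a cytoplasmic sensor of long double-stranded RNA. Oasl1 encodes a relative of the 2'-5' oligoadenylate synthetases that in mouse limits the translation of Irf7. Gbp2 and Gbp3 encode guanylate-binding proteins, large GTPases that act against pathogens inside cells. Ifi205 encodes a member of the PYHIN family of interferon-inducible proteins. Tap1 encodes a subunit of the transporter that carries peptides into the endoplasmic reticulum, and B2m encodes beta-2-microglobulin, the light chain that every classical class I molecule needs to reach the surface.

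Positions are from RefSeq on the mouse build GRCm38.p6. Ifih1 lies on chromosome 2 at 62595618 to 62646255 and B2m on the same chromosome at 122147687 to 122153082. Gbp3 (chromosome 3, 142560016 to 142573213) and Gbp2 (chromosome 3, 142620663 to 142638008) are near neighbours. Oasl1 lies on chromosome 5 at 114923143 to 114937911, Tap1 on chromosome 17 at 34187556 to 34197225 and Ifi205 on chromosome 1 at 174011998 to 174031755. The array files give no probe coordinates, so it is not known here which exon or UTR a probe reads.

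The promoter letters of the members are shown because the ISRE is the element by which such genes are commonly known. Promoters were the RefSeq windows from 250 bases before to 50 bases after each annotated start, and all 7 members were matched by symbol. The motif searched was GAAA, any 2 bases, GAAA, on both strands, which 3.44% of 32851 mouse promoters and 3.99% of 27025 genes held. It was found in 5 of the 7 members (Ifih1, Gbp2, Gbp3, B2m and Ifi205). In Oasl1 and Tap1 these letters are not in this window. The lines below give each gene's match with up to 10 bases on either side, on the strand of the gene, 5' to 3', with the motif in capitals. A stretch of TTTC, any 2 bases and TTTC is the motif on the opposite strand.
Ifih1, chr2:62646206-62646233, minus strand, bases 33 to 42 after the start: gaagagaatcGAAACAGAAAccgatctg
Gbp2, chr3:142620594-142620623, plus strand, 59 to 50 bases before the start: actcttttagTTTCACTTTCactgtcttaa
Gbp3, chr3:142559989-142560018, plus strand, 45 to 36 bases before the start: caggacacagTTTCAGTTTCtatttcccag
B2m, chr2:122147538-122147567, plus strand, 139 to 130 bases before the start: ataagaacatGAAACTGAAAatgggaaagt
Ifi205, chr1:174031870-174031899, minus strand, 134 to 125 bases before the start: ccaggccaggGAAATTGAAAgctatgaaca
Ifi205, chr1:174031713-174031742, minus strand, bases 24 to 33 after the start: ataccccattTTTCACTTTCtcagttactg

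Gbp3 had a second match that overlaps the first, at 39 to 30 bases before the same start, and the window of its other annotated start held none. The 250 bases before the start are given as examples for Gbp3, B2m and Ifi205. Capitals mark the ISRE letters and, in B2m alone, also a match on the opposite strand to GGG, any 2 bases, TT, any base and CC, a kappaB-like motif searched on both strands (4.79% of promoters held it, and 1 of the 7 members).
Gbp3, chr3:142559794-142560043, plus strand: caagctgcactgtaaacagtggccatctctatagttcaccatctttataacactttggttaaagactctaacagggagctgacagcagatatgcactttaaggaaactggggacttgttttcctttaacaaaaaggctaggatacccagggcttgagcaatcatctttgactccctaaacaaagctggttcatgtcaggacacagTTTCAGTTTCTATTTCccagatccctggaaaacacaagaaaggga
B2m, chr2:122147437-122147686, plus strand: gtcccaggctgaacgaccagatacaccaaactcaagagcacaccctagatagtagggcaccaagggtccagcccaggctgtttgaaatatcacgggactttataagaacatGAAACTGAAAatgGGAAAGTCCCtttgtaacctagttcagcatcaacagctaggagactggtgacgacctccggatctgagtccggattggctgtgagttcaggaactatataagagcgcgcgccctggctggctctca
Ifi205, chr1:174031756-174032005, minus strand: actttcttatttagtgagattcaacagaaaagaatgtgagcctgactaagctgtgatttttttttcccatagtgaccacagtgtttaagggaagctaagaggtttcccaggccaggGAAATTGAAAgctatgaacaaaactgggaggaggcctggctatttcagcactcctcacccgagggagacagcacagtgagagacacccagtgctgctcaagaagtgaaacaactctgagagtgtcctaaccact

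The gamma-activated site TTCNNNGAA, which reads the same on both strands, was in 8.3% of promoters and in 0 of the 7 members. A match describes letters and is not a measured site.

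Before the values, the libraries need a description, because their marker genes differ from the tissue label. Of 16 skeletal muscle markers, 1 to 4 were above the floor threshold on all 3 arrays of a group. The floor threshold of an array is the mode of its log2 raw intensities plus 5 SD of the values mirrored below the mode. On the log2 normalized scale, the lowest signal above it was 6.87 to 7.28 with normal mock and 6.21 to 6.41 with normal mcIRBP. It was 5.96 to 6.11 with diabetic mock and 6.21 to 6.68 with diabetic mcIRBP. Counts of arrays above the threshold therefore do not compare levels between groups. The summed level (sum of normalized intensities) of 14 liver markers was 63567 to 66714 on the normal mock arrays and 839 to 1130 on the other arrays. The summed level of 12 epididymis markers reached 73426 to 79258 with diabetic mcIRBP, against 1934 to 2005 with diabetic mock and 677 to 763 in normal mice. Adipose markers (12 genes) summed to 27971 to 32305 with normal mock, 52429 to 57513 with normal mcIRBP, 47162 to 51904 with diabetic mock and 6814 to 7692 with diabetic mcIRBP. Each mcIRBP comparison within a disease state therefore holds a group whose markers stand apart on all 3 arrays. So does each comparison of the disease states within a treatment, and no value of these comparisons could be had without that group. Normal mock arrays had 2551 to 3768 probes above the threshold and normal mcIRBP arrays 6634 to 8202, while diabetic mock arrays had 9733 to 12941 and diabetic mcIRBP arrays 4685 to 8332. The part of these differences in the results below was not tested, and in such bulk samples fewer cells of a type and less RNA per cell cannot be told apart.

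**Figure D1:**
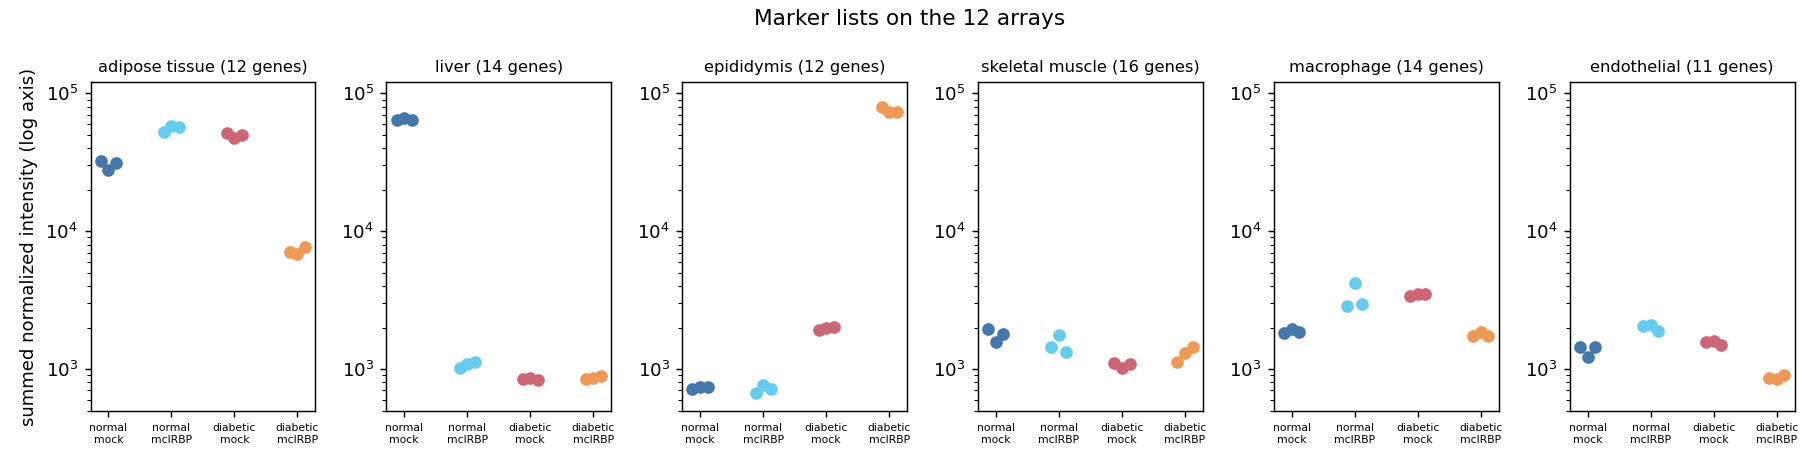
Summed normalized intensity of the markers of 6 tissues or cell types on each of the 12 arrays, on a log axis. Each point is 1 array. Liver markers stand apart on the normal mock arrays (63567 to 66714) and epididymis markers on the diabetic mcIRBP arrays (73426 to 79258).

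The signs of the mcIRBP effects were shared by 6 of the 7 members, while the order of the 4 group means differed among them. In normal mice the mcIRBP group was fitted higher than mock for Ifih1, Gbp2, Gbp3, Oasl1, Tap1 and Ifi205, and in diabetic mice it was fitted lower for the same 6. The effects of Oasl1 and Tap1 could not be bounded in either disease state. In each case the bound of the group below the threshold exceeded the level of the other group. The pairing of higher in normal and lower in diabetic mice was found for 23.8% of all probes and 27.1% of genes. Of the 6, Oasl1 and Ifi205 passed the test in normal mice and none did in diabetic mice. The difference between both effects passed for Ifih1, Gbp3, Oasl1 and Ifi205. All values below are log2 normalized intensities, given for arrays 1, 2 and 3 of a group in that order, and adjusted p-values are from limma with Benjamini-Hochberg adjustment over 29922 probes, called under 0.05. Levels of different probes are not compared with each other.

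**Figure D2:**
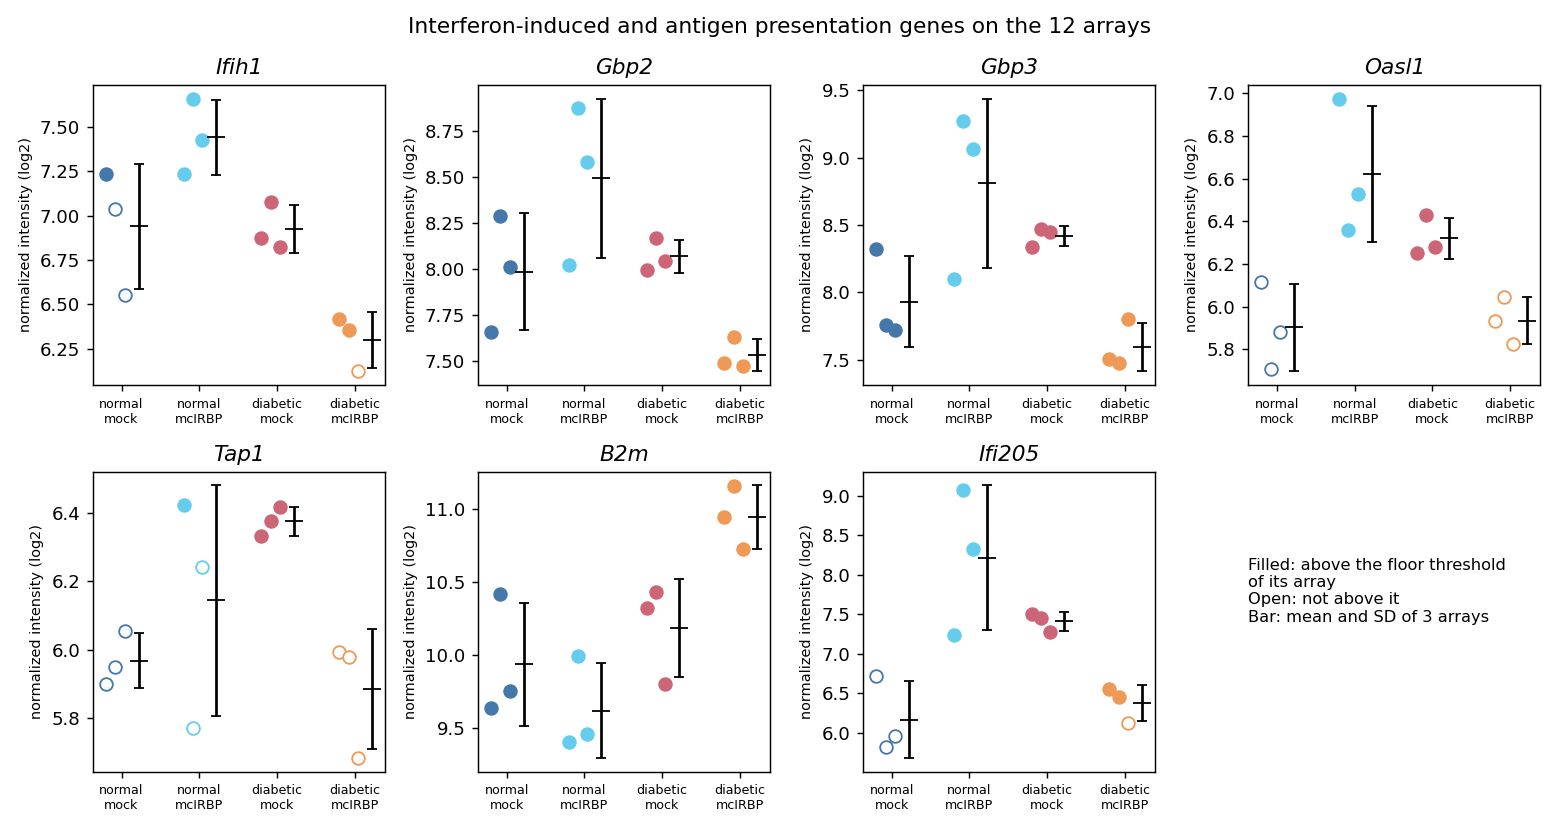
Log2 normalized intensity of the 7 genes on each of the 12 arrays, with the mean and SD of the 3 arrays of a group beside the points. Filled points are above the floor threshold of their array. All 3 diabetic mcIRBP arrays lie below all 3 diabetic mock arrays for 6 genes and above them for B2m, whose 2 mcIRBP effects turn their sign under median scaling.

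The sensor Ifih1 measured 7.24, 7.04 and 6.55 on the normal mock arrays and 7.23, 7.66 and 7.43 on the normal mcIRBP arrays. In diabetic mice it measured 6.87, 7.07 and 6.82 with mock and 6.42, 6.36 and 6.12 with mcIRBP. Normal mcIRBP and normal mock overlapped, since the first mock array lay just above the lowest treated array, while the diabetic mcIRBP arrays lay below all other arrays of the gene. The probe was above the threshold on 1 of 3 normal mock arrays, 3 of 3 normal mcIRBP arrays, 3 of 3 diabetic mock arrays and 2 of 3 diabetic mcIRBP arrays. The group means were ordered normal mcIRBP (7.44 ± 0.21, SD, n = 3), normal mock (6.94 ± 0.35), diabetic mock (6.92 ± 0.13) and diabetic mcIRBP (6.30 ± 0.16), and the middle pair differed by -0.02 (limma adjusted p = 0.961). The effect of mcIRBP was 0.50 in normal mice (SE 0.17, limma adjusted p = 0.135) and -0.62 in diabetic mice (SE 0.17, limma adjusted p = 0.0653). The difference between these effects was -1.12 (SE 0.24, limma adjusted p = 0.0170), which passed the test, and without the second diabetic mock array it was -0.94 (adjusted p = 0.0531).

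Oasl1 was a dim probe that crossed the threshold by group. It measured 6.12, 5.71 and 5.88 on the normal mock arrays, none of them above the threshold, and 6.98, 6.36 and 6.53 on the normal mcIRBP arrays, all above it. With diabetic mock it measured 6.25, 6.43 and 6.28, again all above, and with diabetic mcIRBP 5.93, 6.05 and 5.82, again none. The treated normal arrays did not overlap the normal mock arrays, and the treated diabetic arrays did not overlap the diabetic mock arrays. Oasl1 rose in normal mice by 0.72 (SE 0.15, limma adjusted p = 0.0220); no fold is given because the mock signal is only a bound and the bound exceeds the treated level. In diabetic mice the fitted effect was -0.39 (SE 0.15, limma adjusted p = 0.239). The difference of the effects was -1.11 (SE 0.22, limma adjusted p = 0.010). It could not be bounded, because the bound of diabetic mcIRBP (6.39) also exceeds the diabetic mock level (6.32). Cyclic loess in place of quantile normalization gave a difference of -0.74 with an adjusted p of 0.0790.

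Gbp2 was above the threshold on all 12 arrays. It measured 7.66, 8.29 and 8.01 on the normal mock arrays, 8.02, 8.87 and 8.58 with normal mcIRBP, 7.995, 8.17 and 8.04 with diabetic mock, and 7.49, 7.63 and 7.47 with diabetic mcIRBP. The normal groups overlapped, and the 3 diabetic mcIRBP arrays were the lowest of the 12. The means were 8.49 ± 0.43 for normal mcIRBP, 8.07 ± 0.09 for diabetic mock, 7.99 ± 0.32 for normal mock and 7.53 ± 0.09 for diabetic mcIRBP. The effects of 0.51 in normal mice (SE 0.21, limma adjusted p = 0.196) and -0.54 in diabetic mice (SE 0.21, limma adjusted p = 0.215) did not pass. Their difference of -1.04 had a 95% confidence interval of -1.70 to -0.39 and missed the threshold (SE 0.29, limma adjusted p = 0.0542).

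Its neighbour Gbp3 was also above the threshold on every array. It measured 8.32, 7.76 and 7.72 with normal mock, 8.10, 9.27 and 9.06 with normal mcIRBP, 8.33, 8.47 and 8.45 with diabetic mock, and 7.50, 7.47 and 7.80 with diabetic mcIRBP. The first normal mcIRBP array lay below the first normal mock array, so these groups overlapped, while the diabetic groups did not. The order of means was normal mcIRBP (8.81 ± 0.63), diabetic mock (8.42 ± 0.07), normal mock (7.93 ± 0.34) and diabetic mcIRBP (7.59 ± 0.18). The effect was 0.88 in normal mice (SE 0.27, limma adjusted p = 0.0998) and -0.82 in diabetic mice (SE 0.27, limma adjusted p = 0.135). The difference between the effects was -1.70 (SE 0.39, limma adjusted p = 0.0213). This call was held in 14 of 20 alternative settings, and leaving out any 1 of 5 arrays (normal mcIRBP 3, diabetic mock 2 or 3, diabetic mcIRBP 1 or 2) ended it, with adjusted p-values of 0.0508 to 0.0601. Guanylate-binding proteins are close paralogs, and the files do not show whether a probe also binds a related transcript.

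Ifi205 had the largest fitted effects of the 7 members in both disease states. It measured 6.73, 5.82 and 5.96 on the normal mock arrays, none above the threshold, and 7.24, 9.07 and 8.33 on the normal mcIRBP arrays, all above it. It measured 7.50, 7.45 and 7.27 with diabetic mock, and 6.56, 6.45 and 6.12 with diabetic mcIRBP, of which 2 were above. The untreated and treated arrays did not overlap in either disease state, and their order was opposite in the states. On the scale of raw intensity, the second normal mcIRBP array read 797 and the first read 142, so the spread within this group was wide (8.21 ± 0.92). Ifi205 rose in normal mice by a fitted 2.05 (SE 0.40, limma adjusted p = 0.0132), which is at least 2.12-fold when normal mock is set to the lowest signal above the threshold. In diabetic mice the effect was -1.03 (SE 0.40, limma adjusted p = 0.215). The difference of the effects was -3.08 (SE 0.56, limma adjusted p = 0.00629), or -2.12 with normal mock at its bound, and it passed the test in 20 of 20 alternative settings. Ifi205 and its relatives in the PYHIN family are similar in sequence, and the files do not show whether the probe separates them.

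The peptide transporter subunit Tap1 was near the floor. It measured 5.90, 5.95 and 6.06 with normal mock, 6.42, 5.77 and 6.24 with normal mcIRBP, 6.33, 6.38 and 6.42 with diabetic mock, and 5.99, 5.98 and 5.68 with diabetic mcIRBP. It was above the threshold on 0, 1, 3 and 0 arrays of these groups, so diabetic mock was the only group that measured it on every array. On the normalized scale the threshold was also lowest in that group. The diabetic groups did not overlap and the normal groups did. The effect was 0.18 in normal mice (SE 0.15, limma adjusted p = 0.521) and -0.49 in diabetic mice (SE 0.15, limma adjusted p = 0.0937), and their difference of -0.67 missed the threshold (SE 0.21, limma adjusted p = 0.0861). Neither effect could be bounded, nor could their difference. The bound was 7.13 for normal mock against 6.14 with normal mcIRBP, and 6.39 for diabetic mcIRBP against 6.38 with diabetic mock.

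B2m was above the threshold on all 12 arrays, and its percentile among the probes of an array was 98.5 to 99.6. It measured 9.63, 10.41 and 9.76 with normal mock, 9.40, 9.99 and 9.46 with normal mcIRBP, 10.32, 10.43 and 9.80 with diabetic mock, and 10.95, 11.16 and 10.73 with diabetic mcIRBP. The 3 diabetic mcIRBP arrays were the highest of the 12, and the other groups overlapped each other. The means were 10.94 ± 0.22 for diabetic mcIRBP, 10.18 ± 0.34 for diabetic mock, 9.93 ± 0.42 for normal mock and 9.62 ± 0.32 for normal mcIRBP. The effect was -0.32 in normal mice (SE 0.25, limma adjusted p = 0.485) and 0.76 in diabetic mice (SE 0.25, limma adjusted p = 0.124). The difference of 1.08 missed the threshold (SE 0.35, limma adjusted p = 0.0971). These directions depend on the scaling, since median scaling gave 0.79 in normal mice, -0.25 in diabetic mice and -1.04 for the difference, none of which passed.

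**Figure D3:**
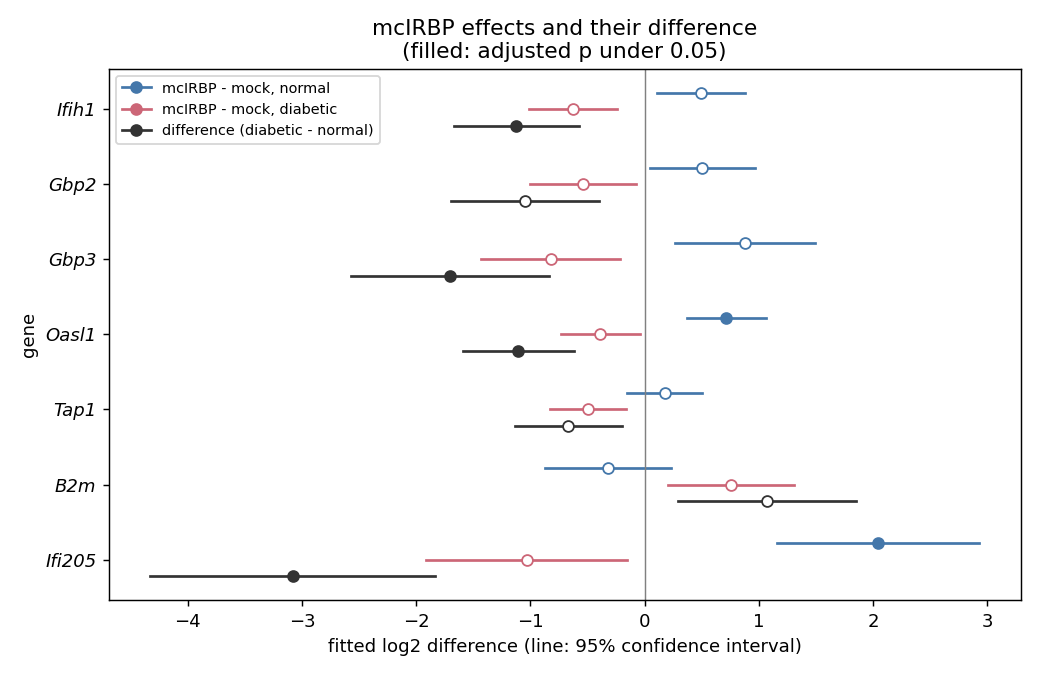
Fitted log2 effect of mcIRBP in normal and in diabetic mice, and the difference of both, for the 7 genes, with 95% confidence intervals. Filled points have an adjusted p under 0.05: Oasl1 and Ifi205 in normal mice, and the differences of Ifih1, Gbp3, Oasl1 and Ifi205. B2m lies on the opposite side from the other 6, a direction that median scaling turns.

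The members were chosen with earlier results of these data known, so the counts and medians here describe them and are no test of the set. Counted over the members, 2 of 7 rose with mcIRBP in normal mice and 0 fell, where 6.17% of all probes were called (3.46% higher and 2.71% lower). The arrays of 2 members did not overlap and were higher, against 10.4% of all probes, and those of 0 were lower, against 8.3%. In diabetic mice 0 of 7 were called by limma, where 6.77% of all probes were (3.72% higher and 3.04% lower), while 7 of 7 had an unadjusted p under 0.05, as did 15.3% of all probes. In that comparison the treated arrays of 6 members lay below all mock arrays, against 17.3% of probes, and those of 1 member above, against 18.1%. For the difference of the effects 4 of 7 were called, all negative, where 9.11% of all probes were called (4.27% positive and 4.84% negative). The median of the members was 0.51 in normal mice, -0.54 in diabetic mice and -1.11 for the difference, against medians over all probes of 0.00, 0.01 and 0.03 in the same order. Over the 9874 probes above the threshold on all arrays of at least 1 group, these medians were 0.15, -0.08 and -0.22, in the same directions as those of the members. All 7 members are among the 9874 probes. With the adjustment over these probes alone, 15.1%, 20% and 25.6% of them were called in the same order, larger shares than over all probes. The calls in normal mice were lost under median scaling, cyclic loess, array weights, the deposited normalized intensity, and a fit to the 6 normal arrays alone (0 of 7 in each). Of all probes, these settings called 0.976%, 1.72%, 2.06%, 1.61% and 1.74% in that order. In diabetic mice the count was 7 with array weights, where 23.2% of all probes were called. It was 6 with the deposited normalized intensity (13.7% of all probes) and 6 with the 6 diabetic arrays alone (14.1%).

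The disease states were compared within each treatment, with the same arrays entering more than 1 comparison. The mock comparison holds the normal mock arrays with high liver markers, and the mcIRBP comparison the diabetic arrays with high epididymis markers. The part of these marker differences in the values was not tested. Diabetic mock against normal mock gave 0 of 7 called by limma (3 of 7 with an unadjusted p under 0.05, against 25.8% of all probes), where 8.39% of all probes were called (4.57% higher and 3.82% lower). The arrays of Gbp3, Oasl1, Tap1 and Ifi205 did not overlap and were higher in diabetic mice, against 19.1% of probes, and those of 0 members were lower, against 18.7%. Ifi205 differed by 1.24 (SE 0.40, limma adjusted p = 0.0865), at least 1.22-fold with normal mock at its bound. Median scaling called 7 of 7 there, all higher, while it also called 15092 of all probes.

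Diabetic mcIRBP against normal mcIRBP gave 6 calls of 7, where 11.6% of all probes were called (5.99% higher and 5.6% lower). With dim probes left out, 31.9% of the 9874 probes kept were called. The diabetic arrays of 5 members lay below all normal arrays, against 17.8% of probes, and those of 1 above, against 15.2%. Ifih1 was lower by a log2 difference of -1.14 (SE 0.17, limma adjusted p = 0.00194). Gbp2 differed by -0.96, Gbp3 by -1.22 and Ifi205 by -1.84, with limma adjusted p-values of 0.0138, 0.0176 and 0.0140. Oasl1 differed by -0.69 (limma adjusted p = 0.0174), at least 1.17-fold lower with the diabetic group at its bound. B2m was the 1 member that was higher, by 1.33 (SE 0.25, limma adjusted p = 0.00651), and the sign held under median scaling at 1.40. Tap1 differed by -0.26 (limma adjusted p = 0.329). None of the 7 was called there under median scaling, and 2 were with the 6 arrays alone.

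Across the 12 arrays the 6 members other than B2m had pairwise Pearson r of 0.17 to 0.91 with a median of 0.65 over 15 pairs. B2m had r of -0.68 to -0.39 with them. These values describe arrays that share group and depth of signal. After the group means were removed, the median r of the 15 pairs was -0.07, and B2m had r of -0.43 to 0.72 with the 6 others, the highest with Gbp2. Among 7515 genes above the threshold in at least 1 whole group, the pattern most like Ifi205 was that of Ccdc69 (r = 0.988), followed by Spr (0.971) and 9130401M01Rik (0.954). Gbp3 was most like Msr2 (0.959), a macrophage scavenger receptor gene, Tank (0.958), an adaptor of TRAF signalling, and Cnih (0.956). Oasl1 was most like Lmcd1 (0.946), Tlr2 (0.918), the receptor for bacterial lipoproteins, and Tnfaip2 (0.913). B2m was most like Lcn9 (0.875), an epididymal lipocalin, H2afj (0.874) and Spink8 (0.873). Ifih1 was most like 9030611O19Rik (0.954), 0610038F07Rik (0.952) and Nob1 (0.944). Gbp2 was most like Ube2g2 (0.961), Ppfibp1 (0.960) and Ndufab1 (0.956), and Tap1 like 6530401N04Rik (0.980), Npepl1 (0.949) and Txnip (0.947).

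The wider pathway was described through 7 lists. Beside their counts under other scalings, median scaling called 0.976% of all probes in normal and 13.5% in diabetic mice. Cyclic loess called 1.72% and 10.6%, against 6.17% and 6.77% with quantile normalization. Of 38 measured interferon-stimulated effectors, 8 rose and 0 fell with mcIRBP in normal mice, and the median effect was 0.29. Over all 16637 genes 4.63% rose and 3.33% fell, and the median was 0.01. The list median was 0 once groups under the threshold were placed at it and effects that could not be bounded were counted as 0. Cxcl10, a chemokine that draws T cells, went from 6.96 ± 0.38 to 8.46 ± 0.52 and rose by 1.497 (SE 0.24, limma adjusted p = 0.00506). Isg20, an exonuclease that degrades viral RNA, rose by 1.04 (limma adjusted p = 0.0137), and Adar, the RNA-editing adenosine deaminase, by 0.68 (adjusted p = 0.00795). Trim30 (now Trim30a) rose by 0.49 (adjusted p = 0.00820). Adar and Trim30 were below the threshold on all normal mock arrays, so no fold is given for them. In normal mice the calls of Isg20 and Adar held in 17 of 22 alternative settings, that of Cxcl10 in 19 of 22 and that of Trim30 in 16 of 21. Under cyclic loess 1 of the 38 rose and under median scaling 0, with list medians of 0.12 and 0.71.

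In diabetic mice 1 of the 38 effectors rose and 2 fell with mcIRBP, and the list median was -0.15, where 5.27% of all genes rose and 4.21% fell. Under median scaling 0 rose and 11 fell with a median of -0.49, and under cyclic loess 1 rose and 2 fell with a median of -0.03. Isg20 was the riser, from 7.74 ± 0.10 to 9.94 ± 0.10, a change of 2.20 (SE 0.20, limma adjusted p = 8.35e-05). Isg20 rose in both disease states, and more in diabetic mice by 1.16 (limma adjusted p = 0.0314). Median scaling turned the sign of that difference to -0.32 (adjusted p = 0.750) and called neither effect (adjusted p = 0.112 in diabetic and 0.171 in normal mice), and cyclic loess did not call the normal effect (adjusted p = 0.203). Ifi27 measured 13.02 ± 0.02 with mock and 9.65 ± 0.09 with mcIRBP, and fell by 3.37 on the log2 scale (SE 0.76, limma adjusted p = 0.0253), a call that held in 16 of 22 alternative settings. Parp9, a partner of the ubiquitin ligase Dtx3l, fell by 0.99 in diabetic mice (adjusted p = 0.00116) and rose by 0.59 in normal mice (adjusted p = 0.0280). Its difference of -1.58 (SE 0.19, limma adjusted p = 0.000436) had the lowest p among the effectors. For the difference, 5 effectors were called negative and 1 positive of 38, where 6.61% of all genes were negative and 5.86% positive. These counts were 22 and 1 under median scaling and 1 and 1 under cyclic loess. Of all probes, these scalings called 21% and 8.5%, against 9.11% with quantile normalization.

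**Figure D4:**
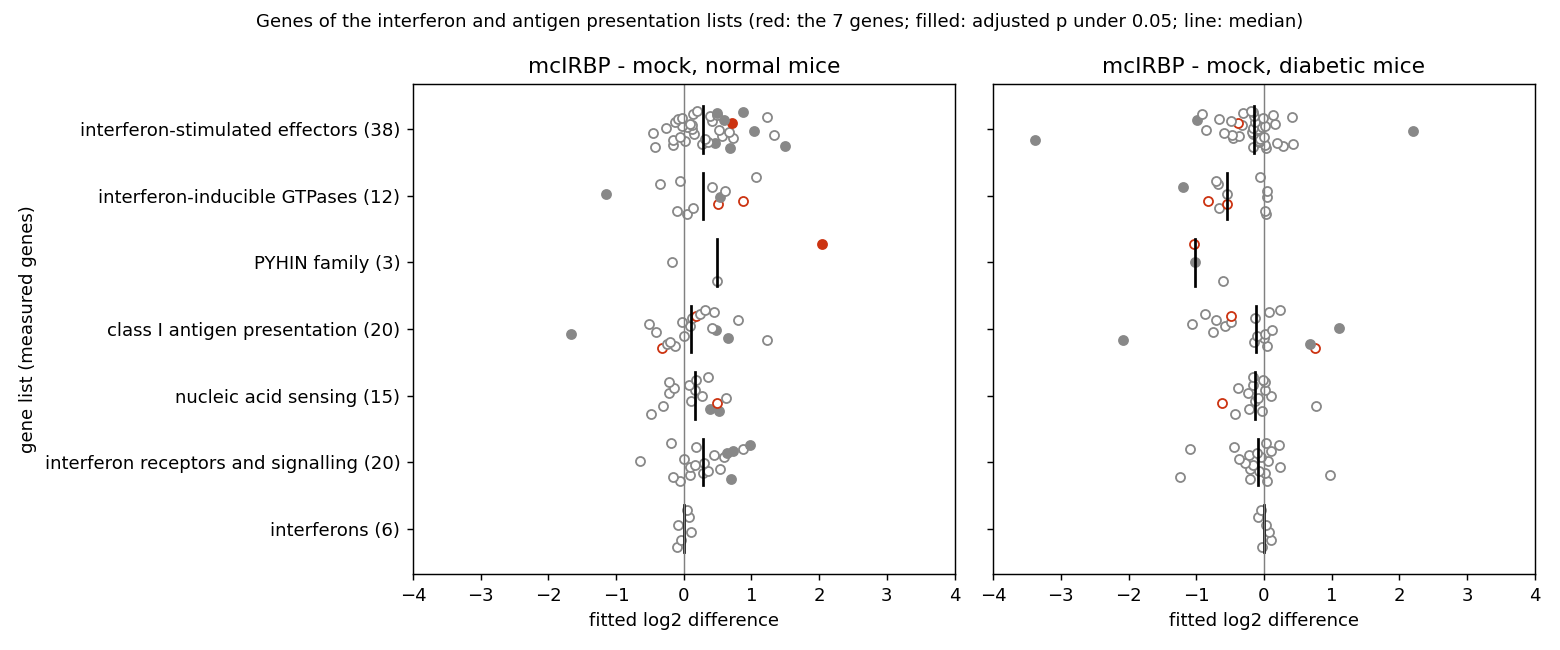
Fitted log2 effect of mcIRBP for each measured gene of 7 lists, in normal and in diabetic mice. Each point is 1 gene, red for the 7 genes of the set, filled where the adjusted p is under 0.05, and the black line is the median of a list. The median of the 38 interferon-stimulated effectors lies at 0.29 in normal mice and at -0.15 in diabetic mice.

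Of 12 interferon-inducible GTPases, 1 rose and 1 fell in normal mice, and 0 rose and 1 fell in diabetic mice. Gbp5 rose by 0.53 in normal mice (limma adjusted p = 0.0251) from a group below the threshold, so that no fold is given. Gbp6 fell there by 1.15 (limma adjusted p = 0.0316), opposite in direction to the fitted values of Gbp2 and Gbp3. These calls held in 12 and 9 of 22 alternative settings. Igtp, an immunity-related GTPase, went from 8.45 ± 0.09 to 7.26 ± 0.17 in diabetic mice and fell by 1.19 (SE 0.15, limma adjusted p = 0.000769), a call that held in 22 of 22 alternative settings. Median effects of the list were 0.28 in normal and -0.54 in diabetic mice. Median scaling called 0 of the 12 in normal mice and 5 as lower in diabetic mice, and cyclic loess called 0 in normal mice and 1 as lower in diabetic mice.

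The PYHIN list had 3 measured genes. Ifi205 rose in normal mice as given above, where 0 of the 3 were called under median scaling or cyclic loess. Ifi204 fell by 1.02 in diabetic mice, from 7.99 ± 0.23 to 6.97 ± 0.13 (SE 0.20, limma adjusted p = 0.0114), and it held in 21 of 22 alternative settings. Ifi203 was below the threshold with normal mock and diabetic mcIRBP, the same groups in which Oasl1 was below it. Its mean was 6.73 with normal mock all the same, against 6.56 with diabetic mock, where it was above the threshold.

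Class I antigen presentation had 20 measured genes, of which 2 rose and 1 fell in either disease state. The median was 0.11 in normal mice and -0.12 in diabetic mice, and the normal one was -0.01 under cyclic loess. In normal mice 0 rose and 1 fell under either other scaling, and in diabetic mice 0 rose and 6 fell under median scaling, with a median of -0.38. H2-D1, a classical class I heavy chain, went from 11.02 ± 0.10 to 8.93 ± 0.50 in diabetic mice and fell by 2.09 (SE 0.37, limma adjusted p = 0.00615), in 22 of 22 alternative settings. B2m, the partner of that heavy chain, measured higher in the same arrays, with a direction that median scaling turned. Pdia3 and Canx, chaperones of the endoplasmic reticulum that fold class I chains and many other proteins, rose by 1.11 (adjusted p = 0.0474) and 0.68 (limma adjusted p = 0.0357) in diabetic mice, calls that held in 10 and 14 of 22 alternative settings.

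In normal mice H2-Q10, a secreted class I molecule known from the liver, fell from 7.47 ± 0.30 to below the threshold, at least 2.24-fold (limma adjusted p = 1.34e-05). The liver markers fell in the same comparison in 14 of 14 genes, and the part of the liver signal in H2-Q10 was not tested. H2-M3 rose by 0.65 (limma adjusted p = 0.0110) and H2-T24 by 0.47 (adjusted p = 0.00896), both from below the threshold and with no fold. Class I heavy chain genes are close paralogs, so a probe named for one may also read another.

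Nucleic acid sensing had 15 measured genes, of which 2 rose in normal mice and 0 were called in diabetic mice by limma (5 had an unadjusted p under 0.05, while 1 fell under cyclic loess and 2 under median scaling). In normal mice 0 rose under either other scaling. The risers were Ddx58, which encodes the RNA sensor RIG-I (0.52, limma adjusted p = 0.0328), and Dhx58, its relative LGP2 (0.39, limma adjusted p = 0.0392). Ifih1 belongs to the same family of helicases. Both were below the threshold with normal mock, and the calls held in 9 and 5 of 22 alternative settings.

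Of 20 interferon receptor and signalling genes, 4 rose and 0 fell in normal mice, and 0 were called in diabetic mice by limma (4 with an unadjusted p under 0.05). In normal mice 0 rose under median scaling and 1 under cyclic loess, and in diabetic mice 6 fell under median scaling. Stat3, a transcription factor shared by many cytokine receptors, went from 7.45 ± 0.09 to 8.42 ± 0.20 and rose by 0.98 (SE 0.10, limma adjusted p = 0.000209) in 21 of 22 alternative settings. Socs1, an inhibitor of JAK signalling, rose by 0.73 (limma adjusted p = 0.00225), Ifnar2, a chain of the type I interferon receptor, by 0.69 (adjusted p = 0.0471), and Jak2 by 0.65 (adjusted p = 0.0371), at least 1.16-fold. Socs1, Ifnar2 and Jak2 were below the threshold on all normal mock arrays, and no fold is given for Socs1 and Ifnar2. The calls of Ifnar2 and Jak2 each held in 6 of 22 alternative settings. Of the interferons themselves 6 genes were measured, and all 6 were below the threshold on every array, with 0 calls by limma in either disease state (0 in normal and 1 in diabetic mice at an unadjusted p under 0.05). At this signal over background, a difference in interferon mRNA was not detectable.

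Markers of other cell types moved in the same comparisons. Over all genes 4.63% rose and 3.33% fell in normal mice, and 5.27% rose and 4.21% fell in diabetic mice. Of 14 macrophage markers, 5 rose and 0 fell with mcIRBP in normal mice, and 0 rose and 7 fell in diabetic mice. Under median scaling 2 of the 14 rose in normal and 8 fell in diabetic mice, and under cyclic loess 1 rose and 7 fell. Their summed level was 1821 to 1945 with normal mock, 2847 to 4244 with normal mcIRBP, 3401 to 3513 with diabetic mock and 1726 to 1860 with diabetic mcIRBP. Of the markers, Emr1, Cd68, Cd163, Aif1, Itgam and Fcgr1 were below the threshold on all normal mock arrays. Cd14, Mrc1, C1qa and C1qb were above it on all 3 of these arrays. Cd163 and Fcgr1 were below it on all diabetic mcIRBP arrays. Emr1, the gene of the F4/80 antigen, measured 5.88 ± 0.10, 7.02 ± 0.60, 6.96 ± 0.07 and 6.35 ± 0.01 in the same group order. Itgam was higher with mcIRBP in diabetic mice (6.60 ± 0.16 to 7.20 ± 0.35), and Aif1 hardly differed (6.45 and 6.44). Of 11 endothelial markers, 4 rose in normal mice and 6 fell in diabetic mice, with summed levels of 1225 to 1458, 1882 to 2085, 1496 to 1590 and 853 to 901. These counts were 0 and 7 under median scaling and 2 and 5 under cyclic loess. Of 12 adipose markers, 3 rose in normal mice and 10 fell in diabetic mice. Here the counts were 1 and 11 under median scaling and 0 and 9 under cyclic loess. Of 11 lymphocyte markers 0 were called in either state by limma (2 in normal and 0 in diabetic mice had an unadjusted p under 0.05), and all 11 were below the threshold with normal mock. Under median scaling 2 of the 11 fell in diabetic mice. The sums of macrophage, endothelial and adipose markers were all higher with normal mcIRBP and diabetic mock than in the other 2 groups, and the part of the cell types in the members' values was not tested.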

How the data were processed

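The members and gene lists were chosen with earlier results of these data known. Per the labels, RNA was amplified and carried the dye Cy5. The deposited files hold 2 linear columns, a raw intensity and the authors' normalized intensity, and the submitters' processing notes name limma. The authors' normalized intensity kept the rank order of the raw intensity on each array (Spearman 1) and had medians of 62.9 to 63.2 on the normal and 40.0 to 41.0 on the diabetic arrays, so it was used only as an alternative within a disease state, as log2 of the value plus 50. Here the raw intensity was corrected with normexp (offset 50), quantile normalized over 12 arrays and taken to log2 in limma 3.58.1 (R 4.3.3, statmod 1.5.0). The fit took 1 mean for each group (8 residual degrees of freedom), and all 29922 probes were adjusted together. Arrays of a group correlated with a mean r of 0.880 to 0.984. The number of arrays limits the precision. Where no array of a group was above its threshold, folds are bounds against the lowest signal above it.

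Named genes were the 7 members, up to 4 called genes of lowest p from each list and disease state, and the 3 genes most like each member. Ifi203, the single macrophage markers and the values of B2m beside H2-D1 were added after their values were seen. Counts of lists take the probe of highest mean per gene. Symbols are those of the platform annotation, of which 16633 of 16675 were found in RefSeq. Replicate numbers were not used to pair the samples in the main fit. Alternatives were other scalings, background settings, filters, weights, a block, and each array left out.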

Additional observations from a re-analysis of the deposited data

Results flagged for a closer look

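The members and the list genes named for a call within a disease state were looked at by limma's test of the difference itself. This is the log2 effect in diabetic minus the effect in normal mice, and 16 of these genes were called, where 9.11% of all probes were. List genes without such a call were left out here, so the 16 are not a full count over the lists. Among the members the difference was -1.12 for Ifih1, -1.70 for Gbp3, -1.11 for Oasl1 and -3.08 for Ifi205. Among the effectors it was 1.16 for Isg20 (but -0.32 under median scaling, adjusted p = 0.750), -1.58 for Parp9, -0.65 for Adar and -0.80 for Trim30. Igtp differed by -1.61 and Dhx58 by -0.61.

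Among class I genes the difference was -3.32 for H2-D1 (limma adjusted p = 0.00258), where the effect was 1.23 in normal and -2.09 in diabetic mice. It was 1.68 for H2-Q10, 0.93 for Canx (but -0.13 under median scaling, adjusted p = 0.752) and -0.64 for H2-M3. Of the signalling genes Stat3 differed by -0.75 and Socs1 by -0.63. Disease state and sex fall on the same arrays and cannot be told apart in any of these.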

How the results depend on the processing

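Counts of called members moved with the processing as follows (cause not tested). Percentages in brackets are the shares of all tested probes called in the same setting. For mcIRBP in normal mice the 2 calls became 0 under median scaling (0.976%), cyclic loess (1.72%) and array weights (2.06%). They also became 0 with the deposited normalized intensity (1.61%) and the 6 arrays alone (1.74%). They became 1 to 4 with 1 array left out (1 without normal mock array 2 or 3, 4 without normal mcIRBP array 1). For mcIRBP in diabetic mice 0 calls became 2 under median scaling (13.5%), 1 under cyclic loess (10.6%) and 1 with a normexp offset of 16 (6.81%). They became 1 with dim probes left out (20%) and 7 with array weights (23.2%). They became 6 with the deposited normalized intensity (13.7%), 6 with the 6 arrays alone (14.1%) and 0 to 2 with 1 array left out. For the difference of the effects the 4 calls became 2 without diabetic mock array 2 (6.36%) and ranged from 2 to 6 with 1 array left out. For diabetic against normal mock 0 calls became 7 under median scaling (50.4%), 1 with an offset of 16 (10.6%) and 1 with dim probes left out (17.6%). They became 1 with an intensity trend (10.9%), 2 with the 6 arrays alone (10.1%) and 0 to 2 with 1 array left out. For diabetic against normal mcIRBP the 6 calls became 0 under median scaling (4.7%) and 2 with the 6 arrays alone (6.8%), and 4 to 7 with 1 array left out.

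Signs turned under median scaling for B2m (0.79 in normal mice, -0.25 in diabetic mice, -1.04 for the difference) and for Ifih1 between the mock groups (1.21, limma adjusted p = 0.0232). They turned under cyclic loess between the mock groups for Gbp2 (-0.0042) and B2m (-0.13), and with 1 array left out for Ifih1 (-0.21 to 0.13) and Gbp2 (-0.083 to 0.24). Of the values of single members, 633 kept direction and side of the threshold, 63 newly passed, 35 no longer passed and 11 turned sign. Calls over all probes ranged from 292 to 2813 in normal mice (1845 as reported), 1277 to 6954 in diabetic mice (2025), 1904 to 6297 for the difference (2725), 1107 to 15092 between the mock groups (2510) and 1407 to 3881 between the mcIRBP groups (3469). Leaving out dim probes kept 9874 probes and moved the median effect of the tested probes from 0.03 to -0.22 for the difference and from -0.02 to 0.20 between the mock groups.

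Deviations of same-numbered arrays had r of -0.05, -0.15 and -0.00 in normal and -0.34, 0.11 and 0.25 in diabetic mice. Arrays of unlike number had r of -0.17 to 0.16 in normal and -0.42 to 0.50 in diabetic mice. So few pairs cannot decide whether the replicate numbers pair the samples. With the replicate block the called members were 2 in diabetic mice (Ifih1 lower, B2m higher) and 6 for the difference. They were 0 between the mock groups and 6 between the mcIRBP groups. In the same order 5.85%, 7.93%, 6.16% and 9.87% of all probes were called. Using the other probes of a gene could not be run, since each member has 1. With a threshold of 3 SD the members above it on all 3 arrays were the same in number (3, 6, 7 and 3 in the 4 groups). Signal over background limits Oasl1, Tap1 and Ifi205 most.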

Other observations

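The dendritic cell list (9 genes) had 1 gene that rose in normal mice and 0 called in diabetic mice by limma (2 in each state had an unadjusted p under 0.05). The housekeeping list (8 genes) had 0 called in either state by limma (2 in normal and 1 in diabetic mice at an unadjusted p under 0.05), with medians of 0.10 and -0.18. Under median scaling these medians were 0.52 and -0.48, and 2 of the 8 fell in diabetic mice.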
